A study of Mus musculus with 3 samples.

Results

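The genes examined were 10 genes of prostaglandin synthesis and reception, chosen by name: Pla2g4a, Ptgs1, Ptgs2, Ptges, Ptges2, Ptges3, Tbxas1, Ptger2, Ptger3 and Ptger4. All 10 were found among the 54331 features of the deposited table. The cells were RAW 264.7, a transformed macrophage-like line of male BALB/c mouse origin, and all of them had received LPS, the TLR4 ligand of bacterial outer membranes, at 100 ng/mL for 5 h. There were 3 RNA-seq libraries: 1 from cells with a control shRNA, whose genotype is labelled wild-type, and 2 from cells labelled GIV-depleted, with a different shRNA in each (shRNA 1 and shRNA 2). GIV, or Girdin, is a large scaffold protein that modulates heterotrimeric G proteins, and the series title concerns its dampening of TLR4 signalling. No library of unstimulated cells was analysed here, so no value below is a response to LPS. Only transcripts were measured, and neither prostaglandins nor enzyme activities were.

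Prostaglandins are lipid mediators made from arachidonic acid, which cytosolic phospholipase A2 cuts out of membrane phospholipids. A cyclooxygenase turns arachidonic acid into prostaglandin H2, and terminal synthases turn that into prostaglandin E2, thromboxane A2 and other products. In macrophages LPS is known to induce the inducible cyclooxygenase and the inducible prostaglandin E synthase, and the released prostaglandin E2 acts back on the cells through EP receptors, of which EP2 and EP4 raise cAMP.

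The promoters of both cyclooxygenase genes and of the inducible prostaglandin E synthase gene are shown because these genes stood at the ends of the members' levels or differences. Each window runs from 250 bases before to 30 after the RefSeq start (GRCm38.p6), 5′ to 3′ on the gene's strand. They lie at chr1:150099781-150100060 on the plus strand for Ptgs2, chr2:36230176-36230455 on the plus strand for Ptgs1 and chr2:30903268-30903547 on the minus strand for Ptges. The Ptges window, like that of Tbxas1, lies inside the gene span given below, downstream of the start of that span. For these genes the RefSeq start and the annotated gene start therefore differ. Capitals mark matches to any of 6 motifs searched on both strands.
Ptgs2: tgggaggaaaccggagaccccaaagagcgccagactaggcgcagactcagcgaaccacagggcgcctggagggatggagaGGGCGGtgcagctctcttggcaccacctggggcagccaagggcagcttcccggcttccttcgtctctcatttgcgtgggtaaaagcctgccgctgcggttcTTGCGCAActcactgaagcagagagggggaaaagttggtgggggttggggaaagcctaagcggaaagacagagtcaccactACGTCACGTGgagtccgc
Ptgs1: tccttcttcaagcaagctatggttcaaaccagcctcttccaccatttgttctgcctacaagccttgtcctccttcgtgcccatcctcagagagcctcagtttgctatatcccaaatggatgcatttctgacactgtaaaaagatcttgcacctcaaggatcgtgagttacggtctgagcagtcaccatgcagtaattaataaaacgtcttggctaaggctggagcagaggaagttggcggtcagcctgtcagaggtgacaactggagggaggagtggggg
Ptges: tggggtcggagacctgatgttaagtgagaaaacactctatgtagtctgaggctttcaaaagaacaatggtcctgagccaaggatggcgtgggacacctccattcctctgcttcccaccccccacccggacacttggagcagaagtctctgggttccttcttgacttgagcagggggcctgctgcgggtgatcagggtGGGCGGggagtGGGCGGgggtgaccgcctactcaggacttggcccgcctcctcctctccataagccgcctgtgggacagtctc
The motifs were the core of the cAMP response element (ACGTCA), the E-box (CACGTG), a palindromic C/EBP sequence (TTGCGCAA), the GC box (GGGCGG), the TATA box (TATAAA) and the AP-1 sequence (TGANTCA). The Ptgs2 window held the C/EBP palindrome at bases -69 to -62 from the start, which 0.180% of 32851 such windows of all genes also held. It held the cAMP response element core at bases 13 to 18, overlapping an E-box at bases 17 to 22, and a GC box at bases -170 to -165. The core was found in 7.26% of all windows, the E-box in 6.79% and the GC box in 34.7%. The Ptgs1 window held none of the 6 motifs, and that of Ptges held a pair of GC boxes, at bases -53 to -48 and -42 to -37. Among the other members, Tbxas1 held TATA boxes (13.1% of all windows) and an AP-1 sequence (7.46%), Ptges2 held an E-box, and Ptges3, Ptger3 and Ptger4 held GC boxes. The first Pla2g4a window and that of Ptger2 held none. A match is a description of letters and does not show that a factor binds there.

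**Figure D1:**
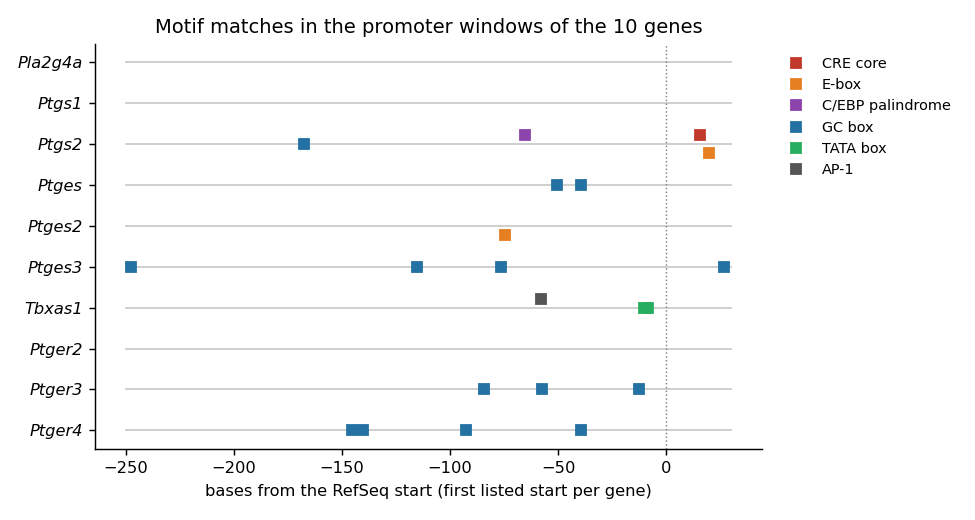
Positions of the motif matches in the promoter windows of the 10 genes; the x axis gives bases from the RefSeq start, each grey line is a window from -250 to 30, and each square is the centre of a match on either strand. The C/EBP palindrome and the cAMP response element core were found among the members in the Ptgs2 window alone, where the core overlaps an E-box.

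Library totals ranged from 47349097 to 49756670 normalised counts. A value of 0.931 in the control, 1.11 under the label shRNA 1 and 0.966 under the label shRNA 2 stands for about 1 read. The targeted gene, Ccdc88a, had 2580 normalised counts in the control, 1734 under the label shRNA 1 and 2561 under the label shRNA 2. The library labelled shRNA 2 therefore goes against its label at the level of mRNA, and every direction given for it below carries that limit. Macrophage markers were abundant, with 336222 normalised counts over 8 genes in the control, 221620.3 under the label shRNA 1 and 254994 under the label shRNA 2, and 6 of the 8 were lower in both, against 35.2% of the features tested. Marker lists of other cell types summed to 9292 to 10660 normalised counts for mast cells. Nearly all of it was Hdc, which macrophages also express (10658, 10140 and 9267), with Cpa3, Tpsb2, Mcpt4 and Fcer1a at 0. Kit had 0.551 normalised counts in the control, 1.13 under the label shRNA 1 and 24.2 under the label shRNA 2. Ms4a2 had 1.87, 1.11 and 0.963 in that order. Sums were 3.85 to 5.61 for fibroblasts, 45.6 to 78.4 for neutrophils, 12.2 to 39.2 for lymphocytes and 0 to 4.45 for epithelial cells. Mitochondrially encoded transcripts took 1.43%, 0.995% and 1.14% of the totals in that order. The part of these shifts in the results below was not tested.

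Across the members, 9 of 10 passed the filter (mean value 10 or more) and entered the test, and Ptger3 did not. All 9 also had a control value above 10. Of these 9, 7 were higher in both libraries labelled GIV-depleted than in the control, against 34.9% of the 13877 features tested. Among the 7, Tbxas1 (log2 differences of 0.01 with shRNA 1 and 0.01 with shRNA 2) and Ptges3 (0.12 and 0.03) lay close to the control. Both comparisons share the 1 control library, and the members were chosen with earlier results of these data known. Only Ptges was lower in both, against 35.2% of features, and Ptger2 went in opposite directions. None passed an adjusted p of 0.05 in limma, against 0.0% of features, and 2, Ptgs1 and Pla2g4a, had an unadjusted p under 0.05, against 6.94%. Differences here are of log2(value + 1), which understates the change of low genes. Their median over the 9 genes was 0.41 for shRNA 1 and 0.10 for shRNA 2, against 0.00 for shRNA 1 and -0.00 for shRNA 2 over all features. With 1 control library and 1 residual degree of freedom, a gene that missed the threshold is not shown to be unaltered.

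**Figure D2:**
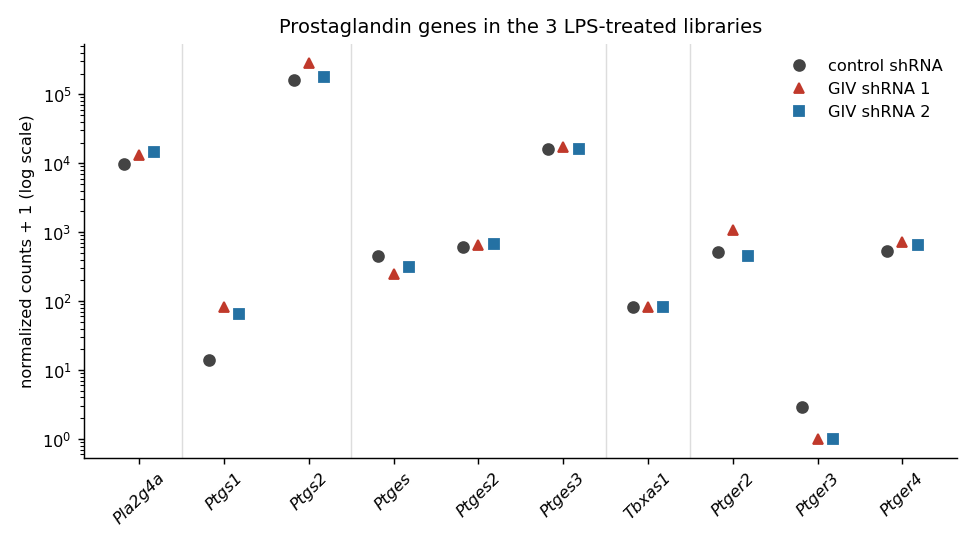
Normalised counts plus 1 of the 10 genes on a log axis, with 1 point per library (circle, control shRNA; triangle, shRNA 1; square, shRNA 2) and genes ordered from arachidonate release to receptors. Ptgs2 lies highest in every library, at 164117 to 286878 normalised counts, and the control lies clearly below both other libraries for Ptgs1.

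Among the enzymes, the release step is served by Pla2g4a, which encodes cytosolic phospholipase A2 alpha (ENSMUSG00000056220.14, chromosome 1, 149829618 to 149961290, minus strand, GRCm38). It had 9824 normalised counts in the control, 13068 under the label shRNA 1 and 14583 under the label shRNA 2. Both libraries labelled GIV-depleted lay above the control, 1.33-fold and 1.48-fold, and close to each other. The mean log2 difference was 0.49 (SE 0.14, limma 95% interval 0.11 to 0.87), with an unadjusted p of 0.023 and an adjusted p of 0.64 in limma. A mean difference at least this large and positive was found in 10.2% of features. Among 19 tested genes of other phospholipases and of arachidonate release and recycling, 5 were higher and 9 lower in both libraries. The shares over all features were 34.9% higher and 35.2% lower. None of the 19 passed the adjusted test, and their median difference was -0.06.

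Ptgs1 encodes cyclooxygenase 1, the enzyme usually described as constitutive (ENSMUSG00000047250.13, chromosome 2, 36230426 to 36252272, plus strand). It had 12.9 normalised counts in the control, 82.3 under the label shRNA 1 and 64.0 under the label shRNA 2, or about 13.8, 74.0 and 66.3 reads. Both libraries labelled GIV-depleted were thus well above a control value that rests on few reads, 6.38-fold and 4.97-fold. A mean log2 difference of 2.41 was the largest of the 9 tested members (SE 0.43, limma 95% interval 1.21 to 3.60). Its unadjusted p was 0.0050 and its adjusted p 0.40 in limma. Ptgs1 was the 1 member at least 2-fold higher in both libraries, a size reached upward by 2.31% of features, and a mean difference as large was found in 1.10%. Platelets and megakaryocytes are known to express Ptgs1, and of 6 of their markers Itga2b moved the same way, with 10.8, 32.5 and 33.0 normalised counts, while Pf4 went the other way, with 15.9, 4.46 and 3.84. Gp6 had 2.79, 0 and 0, Gp1ba was at 0 in every library, and Gp9 and Ppbp were at 0 or about 1 read. That list summed to 29.5, 36.9 and 38.8 normalised counts, and its part in the Ptgs1 values was not tested.

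Ptgs2 encodes cyclooxygenase 2, the inducible enzyme (ENSMUSG00000032487.8, chromosome 1, 150100031 to 150108227, plus strand). It had 164117 normalised counts in the control, 286878 under the label shRNA 1 and 175757 under the label shRNA 2. The library labelled shRNA 1 was 1.75-fold above the control, whereas that labelled shRNA 2 was 1.07-fold above it. In share, Ptgs2 took 0.334% of all normalised counts in the control, 0.577% with shRNA 1 and 0.371% with shRNA 2. It ranked 16th among all features by normalised count in the control, 4th with shRNA 1 and 12th with shRNA 2. Over both libraries the log2 difference averaged 0.45 (SE 0.35, limma 95% interval -0.51 to 1.41; adjusted p 0.83 in limma). The single-library differences were 0.81 and 0.10, of which the first was reached or exceeded by 5.68% of features. For each shRNA alone there is 1 library on either side and no test.

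Per kilobase of the principal annotated transcript, Ptgs2 was at 36855 normalised counts in the control against 4.50 for Ptgs1. That level of cyclooxygenase 2 mRNA over cyclooxygenase 1 mRNA was a ratio of 8197 in the control, 2246 with shRNA 1 and 1767 with shRNA 2. The control ratio rests on about 13.8 reads of Ptgs1 in 1 library and is imprecise. The ratio was lower in both libraries labelled GIV-depleted, as the value of Ptgs1 moved more than that of Ptgs2, and Ptgs2 remained the more abundant cyclooxygenase mRNA in all 3 libraries.

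Ptgs2 and Pla2g4a are neighbours on chromosome 1. Their annotated starts are 138.7 kb apart and they are transcribed away from each other. Both were higher in both libraries, but in a different order, with shRNA 1 the highest for Ptgs2 and shRNA 2 the highest for Pla2g4a. The noncoding gene Ptgs2os, which is transcribed away from Ptgs2 on the opposite strand and does not overlap it, had 72.6, 84.7 and 61.2 normalised counts in the control and with shRNA 1 and shRNA 2. Ptgs2os2, a long noncoding RNA beyond Ptgs2, had 1571, 1858 and 1567. In both of these noncoding RNAs the library labelled shRNA 1 was the highest, as it was for Ptgs2. These noncoding RNAs were chosen after their values were seen.

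Of the terminal enzymes, Ptges encodes the inducible microsomal prostaglandin E synthase, which is commonly coupled to cyclooxygenase 2 (ENSMUSG00000050737.13, chromosome 2, 30889471 to 30929863, minus strand). It had 454 normalised counts in the control, 243 under the label shRNA 1 and 314 under the label shRNA 2. The control was the highest library, 1.86-fold above shRNA 1 and 1.44-fold above shRNA 2, opposite in direction to both cyclooxygenase genes. On average the log2 difference was -0.71 (SE 0.27, limma 95% interval -1.47 to 0.04), with an unadjusted p of 0.059 and an adjusted p of 0.73 in limma. A mean difference as low was found in 4.14% of features. Per kilobase, Ptgs2 exceeded Ptges 296-fold in the control, 965-fold with shRNA 1 and 458-fold with shRNA 2.

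The remaining prostaglandin E synthase genes lay close to the control. Ptges2, which encodes a membrane-associated synthase (chromosome 2, 32395896 to 32405772), had 606 normalised counts in the control, 657 with shRNA 1 and 681 with shRNA 2. Ptges3, which encodes the cytosolic synthase also known as the HSP90 co-chaperone p23 (chromosome 10, 128058954 to 128077272), had 15852, 17285 and 16163. Their mean log2 differences were 0.14 (SE 0.18) for Ptges2 and 0.08 (SE 0.13) for Ptges3, with limma 95% intervals of -0.36 to 0.65 for Ptges2 and -0.28 to 0.43 for Ptges3. Ptges3-ps, annotated as a processed pseudogene and named for Ptges3, was counted at 3571, 4405 and 4406, so reads may be split between it and Ptges3 and the value of Ptges3 is uncertain to that extent.

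Tbxas1 encodes thromboxane A synthase (chromosome 6, 38875404 to 39084585). It had 81.3 normalised counts in the control, 82.2 with shRNA 1 and 82.0 with shRNA 2, the closest agreement of the 3 libraries among the members. Its mean log2 difference was 0.01 (SE 0.33), with a limma 95% interval of -0.91 to 0.94 that is wide because limma draws its error from genes of like level. Quantile normalisation turned this small difference to -0.05. Over 762 bases Tbxas1 is overlapped on the opposite strand by Hipk2, which had 2965, 3676 and 3432 normalised counts. The part of Hipk2 reads in the Tbxas1 values was not tested.

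**Figure D3:**
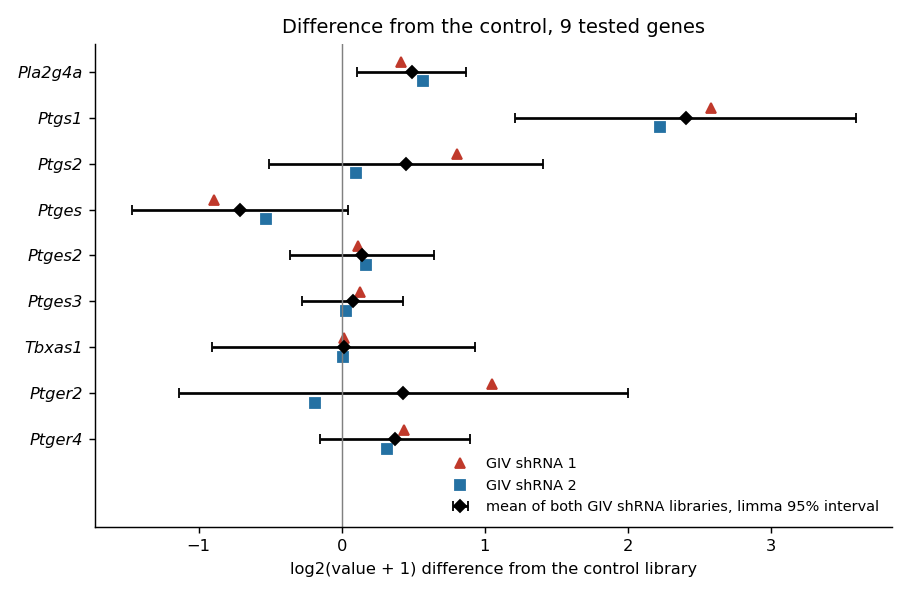
Differences from the control library in log2(value + 1) for the 9 tested genes; diamonds are means of both libraries labelled GIV-depleted with limma's 95% interval, triangles are shRNA 1 and squares shRNA 2. The intervals of Ptgs1 (1.21 to 3.60) and Pla2g4a (0.11 to 0.87) do not include 0 before adjustment. Those of Ptgs2 and Ptger2 include 0, and for these genes the shRNA libraries lie apart. An interval can also be wide where the shRNA libraries lie close, as for Tbxas1 (-0.91 to 0.94).

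The receptor genes of the group encode EP2, EP3 and EP4, which bind prostaglandin E2. Ptger2 (EP2, coupled to Gs and cAMP; chromosome 14, 44988195 to 45003820) had 520 normalised counts in the control, 1078 under the label shRNA 1 and 456 under the label shRNA 2. The library labelled shRNA 1 stood alone, 2.07-fold above the control and 2.36-fold above that labelled shRNA 2, and the control lay between the others. The mean log2 difference of 0.43 (SE 0.57; limma 95% interval -1.14 to 2.0; adjusted p 0.89 in limma) thus came from 1 library, and without the library labelled shRNA 1 it was -0.19. Ptger2 was the 1 member at least 2-fold apart between the shRNAs, as were 6.23% of features. With Ptgs1 it made up the 2 members at least 2-fold higher with shRNA 1, against 3.98% of features. With shRNA 2 there was 1 such member, Ptgs1, against 4.78%. None was 2-fold lower with shRNA 1 (2.94% of features), with shRNA 2 (2.54%) or in both (0.922%). The antisense gene Gm17173, which spans all of Ptger2, had 17.2, 62.2 and 70.7 normalised counts. The libraries were made with a stranded kit, but no source used here says whether strand was used in counting, so reads of the pair may not be told apart.

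Ptger4 (EP4, also coupled to Gs; chromosome 15, 5206661 to 5244187) had 528 normalised counts in the control, 715 with shRNA 1 and 658 with shRNA 2. Both libraries labelled GIV-depleted were above the control and near each other, 1.35-fold and 1.25-fold. The mean log2 difference was 0.38 (SE 0.19, limma 95% interval -0.15 to 0.90), with an unadjusted p of 0.12 and an adjusted p of 0.75 in limma. Part of Ptger4 is overlapped on the opposite strand by Ttc33, which had 972, 1554 and 1109 normalised counts. Ptger3 (EP3, coupled mainly to Gi; chromosome 3, 157566892 to 157645888) had 1.86 normalised counts in the control, about 2 reads, and was listed at 0 in the other libraries. No fold is given for it, and no difference in Ptger3 was detectable at this depth.

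**Figure D4:**
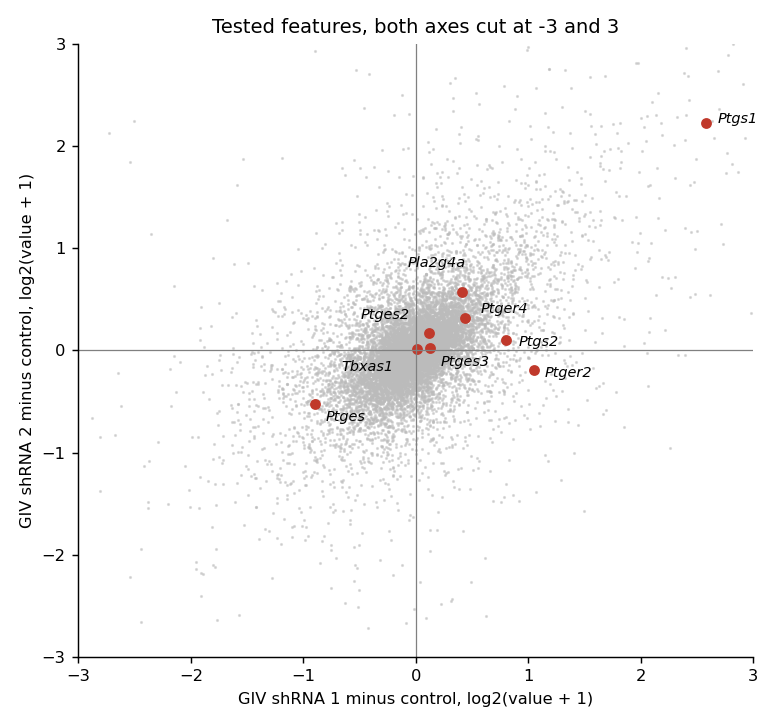
Each grey point is a tested feature, with its difference from the control in log2(value + 1) for shRNA 1 on the x axis and for shRNA 2 on the y axis; red points are the 9 tested prostaglandin genes, and axes end at -3 and 3. Both axes share the control library, so points tend to the diagonal; Ptgs1 lies far up at 2.58 and 2.23, whereas Ptgs2 (0.81 and 0.10) and Ptger2 (1.05 and -0.19) lie off the diagonal toward shRNA 1.

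In order of level per kilobase averaged over the libraries, Ptgs2 came first, at 36855 to 64424 normalised counts per kilobase. Ptges3 followed at 7926 to 8642 and Pla2g4a at 3440 to 5106, and none of these ranges over libraries overlapped the next. Ptger4, Ptger2, Ptges2 and Ptges formed a lower tier, between 66.8 and 292 normalised counts per kilobase, in which each gene's range over the libraries overlapped that of the next. Tbxas1, at 40.9 to 41.3, Ptgs1, at 4.50 to 28.7, and Ptger3, at 0 to 0.592, came last without overlap. Fewer cells expressing a gene and less RNA per cell cannot be told apart in these bulk libraries.

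Among genes of the wider pathway, 79 features of 6 lists were tested, of which 26 were higher and 34 lower in both libraries, against 34.9% higher and 35.2% lower among all features. None passed an adjusted p of 0.05 in limma and 5 had an unadjusted p under 0.05, against 6.94% of all features. Among receptors, Ptgir, which encodes the prostacyclin receptor, a further Gs-coupled prostanoid receptor, had 323 normalised counts in the control, 696 with shRNA 1 and 971 with shRNA 2. It was above the control in both libraries, with a mean log2 difference of 1.34 (SE 0.28; unadjusted p 0.0083 and adjusted p 0.48 in limma). Ptger1, for EP1, had 25.2, 11.2 and 43.1, with the control between the others. Ptger1 and the genes at 0 or near it were chosen after their values were seen. Receptors for prostaglandin D2 and thromboxane (Ptgdr, Ptgdr2 and Tbxa2r) were at 0 or about 1 read in all 3 libraries.

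Among other prostanoid synthases and genes of prostanoid breakdown and transport, 2 of 8 tested were higher and 2 lower in both libraries. All features had 34.9% higher and 35.2% lower. The median difference of these 8 was -0.02. The members of that list with the largest differences were Cbr1, a carbonyl reductase, with 436, 342 and 340 normalised counts, Hpgds, a prostaglandin D synthase, with 515, 706 and 606, Ptgr1, a prostaglandin reductase, with 323, 229 and 308, and Abcc4, an efflux transporter of prostaglandins, with 1729, 1775 and 2295. Ptgds and Ptgis, the brain-type prostaglandin D synthase and prostacyclin synthase genes, were listed at 0 throughout. Among the phospholipase and arachidonate genes, Faah, a fatty acid amide hydrolase, was high in 1 library only, with 50.04, 212 and 49.3. Pla2g2e had 23.0, 11.4 and 16.0, Pla2g16 had 78.1, 93.5 and 33.0, and Daglb, a diacylglycerol lipase, had 843, 655 and 567.

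On the leukotriene and lipoxygenase side, 3 of 9 tested features were higher and 5 lower in both libraries, against 34.9% and 35.2% of all features. The median of these 9 was -0.26. That median was -0.05 without the library labelled shRNA 1 and -0.19 without that labelled shRNA 2. Alox5, the enzyme that opens the leukotriene branch, had 215, 435 and 346 normalised counts (mean log2 difference 0.85, SE 0.27; adjusted p 0.69 in limma), and was chosen after its values were seen. Its partner Alox5ap, chosen in the same way, had 2117, 1776 and 1557. A feature named Dpep2 had 32.6 normalised counts in the control library and 0 in the others, but another feature of the same symbol had 2918, 2563 and 2304, so the value of the first is uncertain.

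In the cAMP route that EP2 and EP4 act through, 8 of 21 tested genes were higher and 7 lower in both libraries. These counts are near the shares over all features, 34.9% higher and 35.2% lower. The median of these 21 was 0.06. Prkar2b, a regulatory subunit of protein kinase A, had 244, 126 and 156 normalised counts, lowest with shRNA 1. The phosphodiesterase Pde4b had 4013, 5899 and 4713, the adenylyl cyclase Adcy9 had 63.7, 83.2 and 107, and the arrestin Arrb1 had 438, 487 and 835. Among regulators of Ptgs2 transcription and mRNA, 7 of 19 were higher and 10 lower in both libraries, against 34.9% and 35.2% of all features. The median of these 19 was -0.07. Zfp36l1, an RNA-binding protein that promotes decay of AU-rich mRNAs, had 289, 621 and 952 normalised counts (mean log2 difference 1.41, SE 0.33; adjusted p 0.53 in limma). The C/EBP factor genes Cebpb and Cebpd, chosen after their values were seen because the Ptgs2 window holds their palindrome, had 2352, 1985 and 1477 normalised counts for Cebpb and 10033, 7870 and 3593 for Cebpd. Both were lower in both libraries labelled GIV-depleted, and their part in the Ptgs2 values was not tested.

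**Figure D5:**
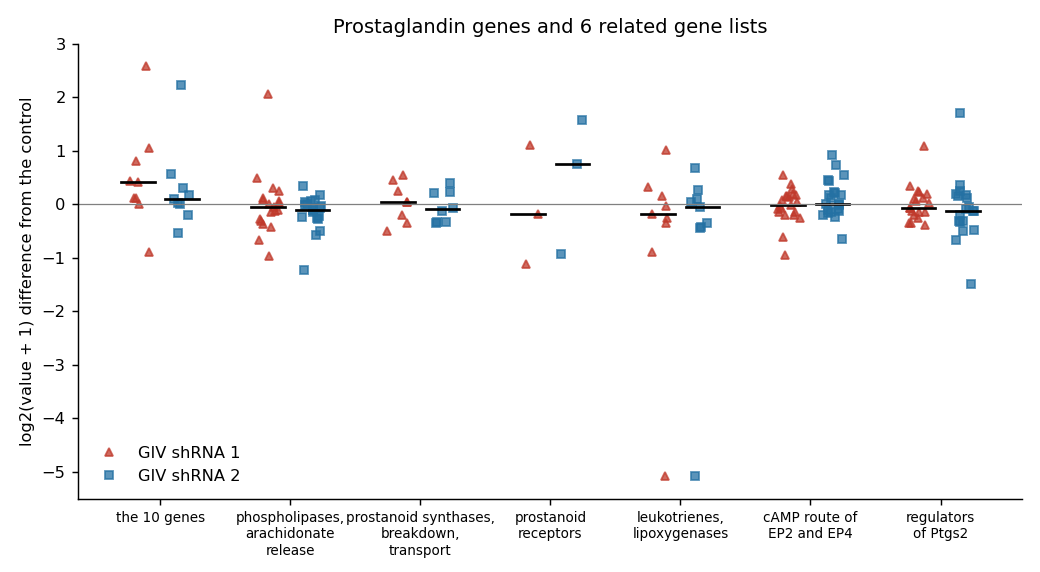
Differences from the control in log2(value + 1) for the tested genes among the 10 prostaglandin genes and for 6 related lists. There is 1 point per gene and library (triangles for shRNA 1 and squares for shRNA 2), with black bars at the median of each library. Over the 6 related lists, medians of the mean of both libraries ran from -0.26 for the leukotriene list to 0.06 for the cAMP route. That of the prostaglandin genes was 0.38. The receptor list has 3 tested genes, and its median of -0.18 was unstable. It was 0.58 without a filter, 1.34 at a mean of at least 50 and 0.75 without the library labelled shRNA 1. Without that labelled shRNA 2 it was -0.18, and it stayed negative under the other alternatives. The lowest pair of points is the uncertain Dpep2 feature at -5.07.

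By pattern over the libraries, the protein-coding genes nearest to Ptgs2 in their pair of differences, among 10389 whose mean value was 50 or more, were Anxa1, Zfp40 and Poc1b, at distances of 0.02 to 0.04 on the log2 scale. Anxa1, which encodes annexin A1, had 11886 normalised counts in the control, 20549 with shRNA 1 and 12640 with shRNA 2. The nearest to Ptgs1 were Gm8251, Ptpa and Morc3, at distances of 0.16 to 0.20, and Ptpa had 1877, 12181 and 9675. With 3 libraries such likeness is a description of these values only.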

How the data were processed

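Stranded mRNA libraries were sequenced from LPS-treated RAW 264.7 cells (1 control shRNA library and 2 GIV shRNA libraries), grouped by the sample titles. The authors deposited normalized counts, a signal scaled between libraries; Salmon, DESeq and DESeq2 and the build GRCm38 are named, without versions or roles, in the submitters' processing notes, and their annotation release was not given in those sources. Between 82.3% and 83.9% of low values lay within 0.1 of a whole multiple of the value of 1 read, too few to recover reads, so no count model was fitted. Depth was roughly 44745207 to 52726929 reads.

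Symbols, positions and principal transcript lengths came from GENCODE M21 (GRCm38), with 54097 identifiers matched, and promoters from RefSeq (GRCm38.p6), with all 10 genes matched. Features whose mean value was 10 or more were fitted on log2(value + 1) with limma 3.58.1 in R 4.3.3 (mean-variance trend, two-sided, Benjamini-Hochberg over 13877 features) and tested on simulated data. No label names separate cultures; p-values therefore reflect the spread of 2 shRNA libraries only, which the single control is taken to share. Each shRNA alone was described by a 2-fold rule.

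Members and lists were chosen with earlier results of these data known. Named were all members, genes of related lists at least 2-fold different in both libraries or else up to 4 with the largest differences, and the 3 genes nearest in pattern to Ptgs2 and to the member with the largest difference. In the 6 related lists 110 features were found for 113 symbols, some of which are aliases. Alternatives varied the pseudocount, filter, scaling, variance trend, fold rule and library left out; removal of a length and GC trend was added after seeing the data.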

Additional observations from a re-analysis of the deposited data

How the results depend on the processing

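No paired analysis was possible because the control has 1 library. Control values have no replicate error, values near 1 stand for about 1 read, and for the members no alternative gave an adjusted p under 0.05. Adjusted p ranged from 0.30 to 0.51 for Ptgs1, 0.48 to 0.78 for Pla2g4a and 0.58 to 0.78 for Ptges in limma. Under other pseudocounts, filters and scalings the mean log2 difference ranged from 2.12 to 2.45 for Ptgs1, 0.49 to 0.51 for Pla2g4a, -0.75 to -0.70 for Ptges and 0.45 to 0.48 for Ptgs2. With the length and GC trend removed it was 2.42, 0.42, -0.69 and 0.33 in that order. Leaving out a library moved Ptgs2 more, to 0.10 without that labelled shRNA 1 and 0.81 without that labelled shRNA 2. The median difference of all features moved by less than 0.1 under every alternative. The sign turned for 2 members: Tbxas1 was -0.0489 with quantile normalisation, and Ptger2 was -0.19 without the library labelled shRNA 1 against 1.05 without that labelled shRNA 2; the cause was not tested.

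Features past an adjusted p of 0.05 numbered 1 at a mean value of at least 50, with equal totals, with TMM factors and with the length and GC trend removed, against 0 as reported. Without a filter on low values 2716 features had an unadjusted p under 0.05, against 963. Without the variance trend 1 member had, against 2. Without a filter 2 members were lower in both libraries, and 1, Ptger3, was at least 2-fold lower by the rule, which rests on about 2 reads in the control; quantile normalisation also gave 2 lower. Equal totals and quantile normalisation each gave 6 members higher in both, against 7, and quantile normalisation gave 3 with an unadjusted p under 0.05. Leaving out a library labelled GIV-depleted gave 7 to 8 members higher and 1 to 2 lower. Without a filter 3230 features were at least 2-fold higher and 2189 lower with shRNA 1, and 2505 higher and 1839 lower with shRNA 2. At a mean of at least 50 these were 264, 118, 307 and 117, and by a 1.5-fold rule 1225, 1089, 1386 and 998. Of the 79 related features tested, 2 were at least 2-fold higher in both libraries and 1 lower, against 2.31% and 0.922% of all features. Without a filter these counts were 9 and 3, and at a mean of at least 50 none was lower (0). No share of all features was taken for these alternatives. Leaving out a library gave 2 to 4 higher and 2 to 3 lower. The counts under another filter, another fold rule or a left-out library change the features, the threshold or the libraries counted; for the others the cause was not tested.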
